A study of Homo sapiens with 12 samples.

Results

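The comparison sets the RNA response to 18DS, a chimeric compound that the series title describes as inhibiting both PI3-kinase and BET proteins, against the summed responses to JQ1 and to BKM120, an inhibitor of each target class. It uses all 12 of the 12 libraries of the series, 3 from each of 4 groups of OPM2 cells, an established human multiple myeloma line. The groups were cells given 18DS at 250 nM, JQ1 at 250 nM or BKM120 at 1 µM, and cells given the DMSO vehicle, all for 2 h. The labels describe the treatments as made in biological triplicate and name no genetic change in any group. Reads came from the 3′ ends of polyadenylated RNA, and read counts per gene were deposited. The dose of BKM120 was not that of 18DS, so the sum stands for these doses only. How far each compound engaged its target is not in these RNA data, so whether the doses match in that respect is not known.

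BET proteins bind acetylated histones through their bromodomains and help RNA polymerase II to elongate. JQ1 fills the acetyl-lysine pocket of those bromodomains, and MYC and HEXIM1 are familiar readouts of it in myeloma cells. PI3-kinase activates AKT, which keeps FOXO transcription factors out of the nucleus, and BKM120 (buparlisib) inhibits the class I PI3-kinases. When that signal is blocked, FOXO factors activate genes such as KLF2, IRS2, BBC3 and TP53INP1.

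For each gene, the departure is the log2 change with 18DS against DMSO minus the log2 change with JQ1 and the log2 change with BKM120. A departure of 0 means that the fold with 18DS equals the product of both single folds, and a negative one means a level below that product. Of 63152 gene identifiers, 13180 had enough counts to be tested. The departure and the single comparisons share libraries: BKM120 and JQ1 enter it with a minus sign and DMSO with a plus sign. The single changes given beside a departure are therefore not independent of it.

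The libraries held between 5501895 and 7692013 counts, and 6.56% to 7.65% of them came from mitochondrially encoded genes. All 10 plasma cell and OPM2 markers examined, among them SDC1, IRF4 and FGFR3, were detected, with a summed level of 5376 to 6470 CPM (a gene's counts scaled to a common library size). The summed level of T and NK cell markers, of which 10 of 11 had an identifier in the table, was at most 1.98 CPM, and that of 12 myeloid markers at most 6.58 CPM. Of 12 epithelial and fibroblast markers only VIM, which myeloma lines also express, passed the count filter, at 620 to 725 CPM. In bulk RNA, fewer cells of a kind and less RNA per cell cannot be told apart. One library stood apart from its group: 18DS replicate 2 lay at −28.9 on the third principal component, against 13.8 and 10.1 for the other 18DS libraries, and that component held 8.39% of the variance. The departure of each called gene, of the leading genes of the single treatments and of the genes just outside the threshold is therefore also given without it.

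Of the 13180 genes, 16 identifiers departed from the sum at an adjusted p under 0.05 (edgeR quasi-likelihood test), which is 0.121% of those tested. With 18DS, 9 lay above the sum (0.0683%) and 7 below it (0.0531%). Among the 9, 2 carry the same counts in every library, RIOX1 and the unnamed ENSG00000255242, so the calls rest on 15 distinct count profiles. At an unadjusted p under 0.05 there were 1015 genes, or 7.7% of those tested, 456 above (3.46%) and 559 below (4.24%). In the same fit 2769 genes (21%) changed with 18DS against DMSO, 9.96% of those tested higher and 11% lower. JQ1 changed 801 (6.08%, with 2.63% higher and 3.45% lower) and BKM120 1082 (8.21%, with 4.07% higher and 4.14% lower). Without 18DS replicate 2 the count of departures was 31 (22 above and 9 below), and 15 of the 16 were among them. Every other library also moved the count when left out, as given after the genes.

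The median departure over all tested genes was −3e-04 and the median size 0.177, with a median standard error of 0.24 (log2). For 68.8% of the genes the 95% interval lay within 1 log2 unit of 0, and for 30.2% within 0.5. Precision followed the level: the share within 1 unit was 98.1% among the 5466 genes whose mean reached 20 CPM and 8.01% among the 3322 whose mean was under 5 CPM. For most genes of low level, the interval therefore did not exclude a departure of 1 log2 unit. These shares do not say which departures could be called, and HBP1, with a departure of −1.02, missed the threshold. A gene without a call was thus not shown to equal the sum.

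**Figure D1:**
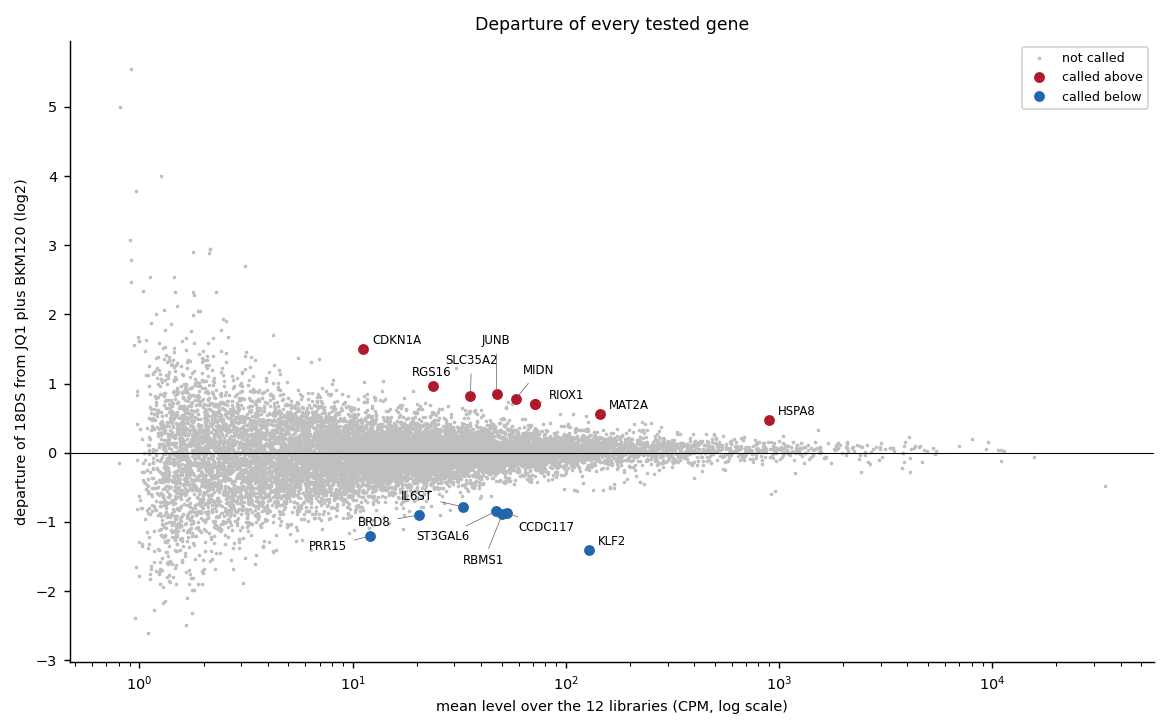
Departure of 18DS from JQ1 plus BKM120 (log2, vertical axis) against the mean level over the 12 libraries (CPM, logarithmic horizontal axis), one point per tested gene. The genes above (red) and below (blue) the sum at an adjusted p under 0.05 have mean levels between 11.2 and 894 CPM, and the spread of the grey points widens toward low levels.

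All 16 had their 3 18DS libraries on the same side of the expected level, as had 50.1% of all tested genes. In 3 of the 16 the 18DS libraries also lay outside the range of the other 9 libraries: RBMS1 below it, JUNB and SLC35A2 above it. Over all genes 397 (3.01%) had the 18DS libraries below the other 9, and 359 (2.72%) above. BKM120 changed 15 of the 16 at an adjusted p under 0.05, SLC35A2 being the exception, and JQ1 changed 8. The BKM120 change ran against the departure in all 16, a direction partly set by the contrast itself, as it did in 69.8% of all tested genes and 88.3% of the genes that BKM120 changed. On the log2 scale, the level with 18DS was closer to that with JQ1 than to that with BKM120 in 15 of the 16, KLF2 being the exception. That nearness, too, is partly set by choosing genes on the contrast. The share was 53.4% of all tested genes and 44.4% of the genes that BKM120 changed, sets not chosen on the contrast.

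Below the sum, the 3 strongest calls were RBMS1, CCDC117 and ST3GAL6, each higher with BKM120 than with DMSO and without that rise under 18DS. RBMS1, a single-stranded nucleic acid binding protein that binds mRNA 3′ ends, had 29.6, 33.4 and 35.9 CPM with 18DS, 36.1, 36.0 and 38.5 with JQ1, 80.2, 83.0 and 83.0 with BKM120, and 50.8, 49.6 and 49.5 with DMSO. The 18DS libraries were the lowest of the 12, and the expected level was 60.7 CPM. The RBMS1 change against DMSO was −0.60 ± 0.10 (SE) with 18DS, −0.44 ± 0.10 with JQ1 and 0.71 ± 0.09 with BKM120, each past the threshold. Its departure was −0.88 ± 0.14 (95% interval −1.16 to −0.61, adjusted p = 0.00188), and −0.88 without 18DS replicate 2.

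CCDC117, a coiled-coil domain protein, had 47.6, 36.3 and 42.6 CPM with 18DS, 44.7, 45.1 and 48.3 with JQ1, 77.0, 78.7 and 78.0 with BKM120, and 46.2, 46.9 and 46.1 with DMSO. The 3 BKM120 libraries stood above the other 9, which overlapped. The expected level was 77.3 CPM. Its departure of −0.87 ± 0.14 (adjusted p = 0.00188) was −0.77 without 18DS replicate 2, the lowest of the 18DS libraries for this gene.

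ST3GAL6, a sialyltransferase that caps glycans with α2,3-linked sialic acid and takes part in making selectin ligands, had 35.9, 37.0 and 35.7 CPM with 18DS, 24.9, 25.6 and 25.0 with JQ1, 93.7, 88.1 and 92.5 with BKM120, and 34.2, 36.7 and 35.3 with DMSO. The 18DS and DMSO libraries overlapped, the JQ1 libraries lay below them and the BKM120 libraries above. ST3GAL6 rose with BKM120 (1.37 ± 0.09, adjusted p = 1.07e-12), fell with JQ1 (−0.49 ± 0.10, adjusted p = 0.00153) and had a change of 0.03 ± 0.10 with 18DS (adjusted p = 0.852). The sum put it at 65.3 CPM. Its departure was −0.84 ± 0.14 (adjusted p = 0.00209), and −0.85 without 18DS replicate 2. RBMS1, CCDC117 and ST3GAL6 kept their call in all 12 fits with 1 library left out and in the other 10 alternatives on the log2 scale.

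Among the 17 tested sialyltransferase and related sialoglycan genes, 3 (17.6%) lay below the sum at an unadjusted p under 0.05, and 0 above. Over all tested genes the share below was 4.24%. The 3 were ST3GAL6 itself, ST8SIA4 (−0.93 ± 0.26) and SELPLG (−0.41 ± 0.15), which encodes the selectin ligand PSGL-1. ST3GAL6 was given with the comparison, so the share is partly set by that choice. The median departure of the list was 0.05, or −0.04 without 18DS replicate 2.

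The remaining genes below the sum were IL6ST, KLF2, BRD8 and PRR15. IL6ST, the gp130 subunit through which IL-6 family receptors signal, had 26.4, 25.6 and 28.9 CPM with 18DS, 23.2, 22.6 and 24.9 with JQ1, 53.6, 48.9 and 58.2 with BKM120, and 27.5, 28.2 and 26.0 with DMSO. Only the BKM120 libraries stood clear of the rest. Its departure was −0.78 ± 0.16 (adjusted p = 0.0240), and −0.74 without 18DS replicate 2. The IL6ST call was lost when BKM120 replicate 1 or 3, DMSO replicate 2 or 3 or any JQ1 library was left out, with departures of −0.71 to −0.81.

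KLF2, a zinc finger transcription factor and a FOXO1 target in lymphocytes, was the only one of the 16 whose 18DS level lay nearer to BKM120 on the log2 scale. The 18DS level differed by 1.39 from JQ1 and by −1.16 from BKM120 (log2). In CPM the 18DS mean (130) lay nearer to that of JQ1 (49.5) than to that of BKM120 (292). KLF2 had 132, 102 and 157 CPM with 18DS, 59.2, 39.8 and 49.6 with JQ1, 314, 296 and 266 with BKM120, and 37.7, 44.0 and 44.0 with DMSO. All 3 18DS libraries lay between the JQ1 and BKM120 libraries, with no overlap, and JQ1 overlapped DMSO. KLF2 rose by 1.64 ± 0.16 with 18DS (adjusted p = 1.16e-05) and by 2.80 ± 0.16 with BKM120 (adjusted p = 2.64e-07), against an expected level of 341 CPM. Its departure was −1.41 ± 0.22 (adjusted p = 0.0321), and −1.26 without 18DS replicate 2. The KLF2 call was lost without 18DS replicate 1, JQ1 replicate 3, any BKM120 library or any DMSO library, with departures of −1.33 to −1.46.

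BRD8, a bromodomain subunit of the TIP60 acetyltransferase complex outside the BET family, averaged 18.4 ± 2.87 CPM with 18DS, 20.1 ± 2.46 with JQ1, 27.4 ± 1.05 with BKM120 and 16.1 ± 1.31 with DMSO (SD, n = 3 each). PRR15 averaged 6.64 ± 0.843 CPM with 18DS, 6.82 ± 0.976 with JQ1, 24.1 ± 3.69 with BKM120 and 10.8 ± 1.21 with DMSO (SD, n = 3 each). For both genes the 18DS and JQ1 libraries overlapped, while every BKM120 library lay above them. Their departures were −0.90 ± 0.20 and −1.20 ± 0.26, each with an adjusted p of 0.0459, and −1.0 and −1.14 without 18DS replicate 2. These were the least steady calls. That for BRD8 was lost in 10 of the 12 fits with a library left out (departures of −0.77 to −0.96), all but those without 18DS replicate 2 or DMSO replicate 1. That for PRR15 was lost in 9 of them (departures of −1.06 to −1.30), all but those without 18DS replicate 1, BKM120 replicate 2 or DMSO replicate 1.

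**Figure D2:**
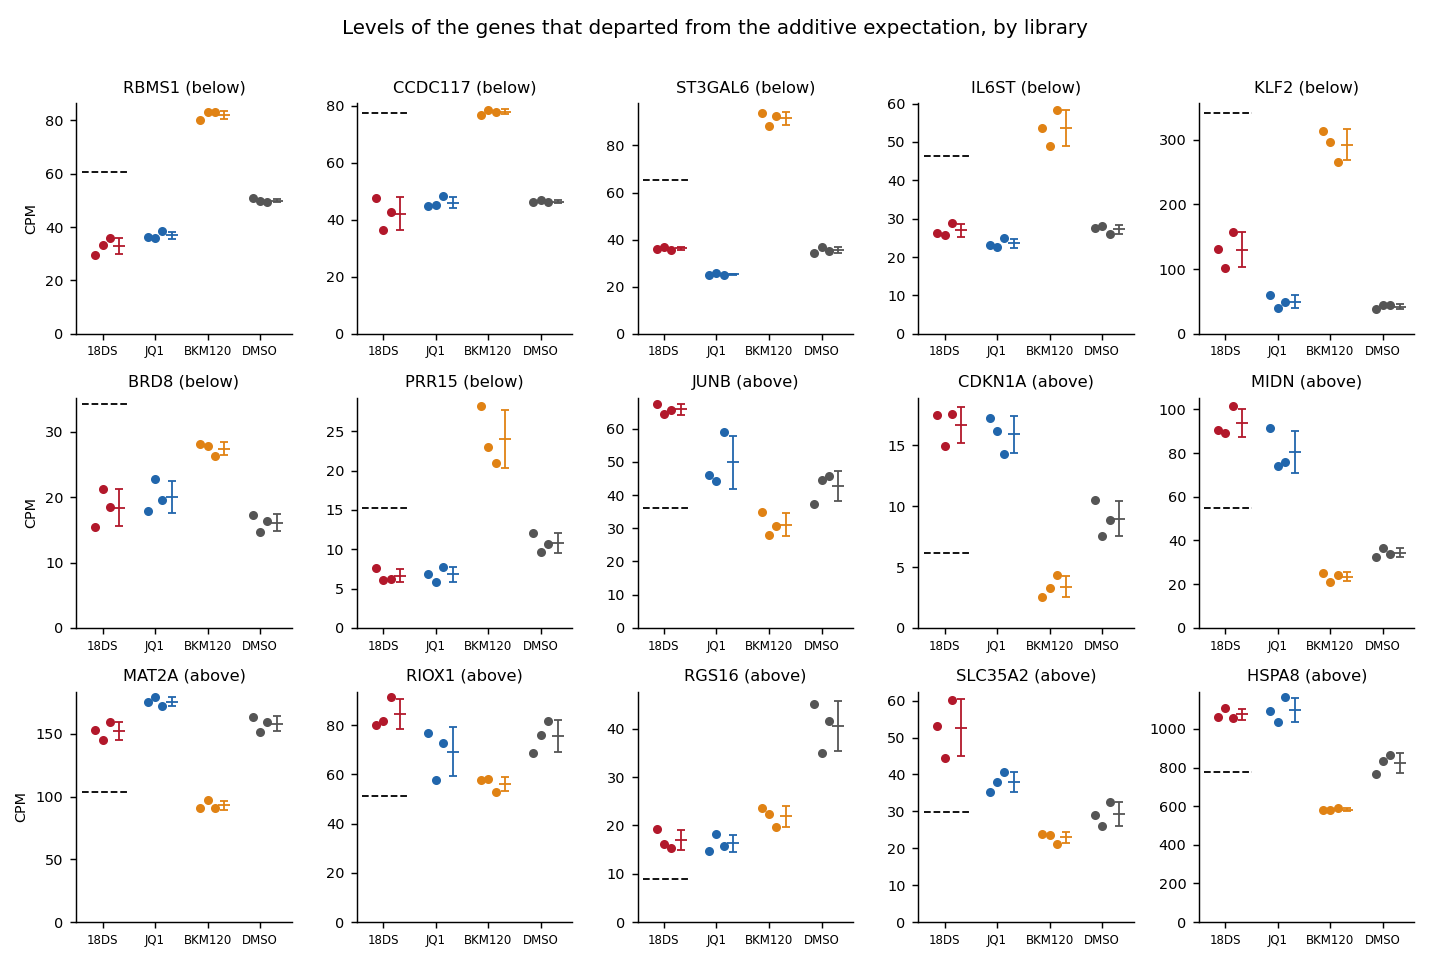
Levels in CPM (vertical axes, each starting at 0) of the 15 named genes that departed from the sum, in the 3 libraries of each group (points), with mean and SD beside them. The dashed line over 18DS marks the level expected from JQ1 plus BKM120: for the genes titled below, the red points lie under it, and for those titled above they lie over it.

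Among the 9 genes above the sum, CDKN1A had the largest departure. CDKN1A encodes p21, an inhibitor of cyclin-dependent kinases. It had 17.5, 14.9 and 17.5 CPM with 18DS, 17.2, 16.2 and 14.2 with JQ1, 2.58, 3.25 and 4.31 with BKM120, and 10.5, 7.57 and 8.83 with DMSO. The 18DS and JQ1 libraries overlapped and lay above DMSO, and the BKM120 libraries lay below it. CDKN1A rose with 18DS (0.89 ± 0.17, adjusted p = 0.000264) and with JQ1 (0.81 ± 0.18, adjusted p = 0.00236) and fell with BKM120 (−1.42 ± 0.23, adjusted p = 6.11e-05). The expected level was 6.13 CPM, and the departure was 1.5 ± 0.28 (95% interval 0.93 to 2.06, adjusted p = 0.0145), or 1.58 without 18DS replicate 2. The CDKN1A call was lost without BKM120 replicate 1 (1.35, adjusted p = 0.0794) and without DMSO replicate 3 (1.51, adjusted p = 0.0586).

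MIDN, which encodes midnolin, a protein that carries immediate early transcription factors to the proteasome without ubiquitin, had 90.6, 89.4 and 101 CPM with 18DS, 91.7, 74.0 and 76.1 with JQ1, 24.9, 21.1 and 24.3 with BKM120, and 32.5, 36.7 and 34.0 with DMSO. The 18DS and JQ1 libraries overlapped, far above the others, and the BKM120 libraries were the lowest. MIDN rose with 18DS (1.45 ± 0.10) and JQ1 (1.23 ± 0.10) and fell with BKM120 (−0.56 ± 0.11). Its departure was 0.78 ± 0.15 (adjusted p = 0.0163), or 0.82 without 18DS replicate 2. The MIDN call was lost without 18DS replicate 3, DMSO replicate 2 or 3 or JQ1 replicate 2 or 3 (departures of 0.72 to 0.78), and with limma-voom (adjusted p = 0.0527). Other calls were also lost with limma-voom, as given with the processing.

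JUNB, an AP-1 transcription factor, had 67.4, 64.3 and 65.7 CPM with 18DS, 46.1, 44.4 and 59.0 with JQ1, 34.8, 27.9 and 30.6 with BKM120, and 37.4, 44.6 and 45.8 with DMSO. The 18DS libraries were the highest of the 12, and JQ1 overlapped DMSO. JUNB rose by 0.63 ± 0.11 with 18DS, against changes of 0.24 ± 0.11 with JQ1 (adjusted p = 0.246) and −0.45 ± 0.12 with BKM120 (adjusted p = 0.0111). Its departure was 0.85 ± 0.16 (adjusted p = 0.0145), or 0.87 without 18DS replicate 2. The JUNB call was lost without DMSO replicate 2 or 3 or JQ1 replicate 1 or 2 (departures of 0.77 to 0.81).

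SLC35A2, the Golgi UDP-galactose transporter, was also highest with 18DS, at 53.3, 44.6 and 60.2 CPM, against 35.3, 37.8 and 40.7 with JQ1, 24, 23.6 and 21.2 with BKM120, and 29.0, 26.1 and 32.7 with DMSO. The groups did not overlap, with 18DS highest, then JQ1, DMSO and BKM120. The departure of SLC35A2 was 0.82 ± 0.17 (adjusted p = 0.0260), or 0.93 without 18DS replicate 2. Its call was lost without 18DS replicate 3, BKM120 replicate 1 or 3, DMSO replicate 3 or JQ1 replicate 1 or 2 (departures of 0.72 to 0.86).

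RGS16, which speeds GTP hydrolysis by G protein alpha subunits, fell with every compound. It had 19.3, 16.1 and 15.3 CPM with 18DS, 14.8, 18.2 and 15.8 with JQ1, 23.7, 22.3 and 19.6 with BKM120, and 45.2, 35.0 and 41.6 with DMSO. The 18DS and JQ1 libraries overlapped, and all treated libraries lay below DMSO. The product of both single folds put RGS16 at 8.85 CPM, so a fall of −1.26 ± 0.13 with 18DS still left a departure of 0.96 ± 0.19 (adjusted p = 0.0240), or 1.0 without 18DS replicate 2. The RGS16 call was lost without 18DS replicate 1, BKM120 replicate 1 or 3, DMSO replicate 1 or 3 or JQ1 replicate 1 or 3 (departures of 0.86 to 1.03).

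HSPA8, MAT2A and RIOX1 had smaller departures. HSPA8, the constitutive HSC70 chaperone, averaged 1075 ± 29.2 CPM with 18DS, 1098 ± 64.0 with JQ1, 582 ± 7.29 with BKM120 and 822 ± 51.4 with DMSO (SD, n = 3 each). The 18DS and JQ1 libraries overlapped above DMSO, and the BKM120 libraries lay below it. Its departure was 0.47 ± 0.10 (adjusted p = 0.0260), or 0.45 without 18DS replicate 2. The HSPA8 call was lost without 18DS replicate 3, BKM120 replicate 1 or 3, DMSO replicate 2 or 3 or JQ1 replicate 1 or 2 (departures of 0.43 to 0.49).

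MAT2A, which makes the methyl donor S-adenosylmethionine, averaged 152 ± 7.32 CPM with 18DS, 176 ± 3.48 with JQ1, 93.1 ± 3.48 with BKM120 and 158 ± 6.15 with DMSO (SD, n = 3 each). MAT2A fell with BKM120 (−0.76 ± 0.08, adjusted p = 1.62e-08), and the 18DS libraries overlapped DMSO (change of −0.05 ± 0.08). Its departure was 0.56 ± 0.11 (adjusted p = 0.0186), or 0.60 without 18DS replicate 2. The MAT2A call was lost without 18DS replicate 3, BKM120 replicate 1 or 3, DMSO replicate 3 or any JQ1 library (departures of 0.53 to 0.57).

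RIOX1, a ribosomal oxygenase, averaged 84.5 ± 6.20 CPM with 18DS, 69.2 ± 9.98 with JQ1, 56.3 ± 2.84 with BKM120 and 75.5 ± 6.53 with DMSO (SD, n = 3 each). Its departure was 0.71 ± 0.14 (adjusted p = 0.0205), or 0.74 without 18DS replicate 2. Which of RIOX1 and the identifier with the same counts the reads came from cannot be told apart. The RIOX1 call was lost without 18DS replicate 3, BKM120 replicate 1 or 3, DMSO replicate 2 or 3 or JQ1 replicate 2 (departures of 0.60 to 0.73).

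**Figure D3:**
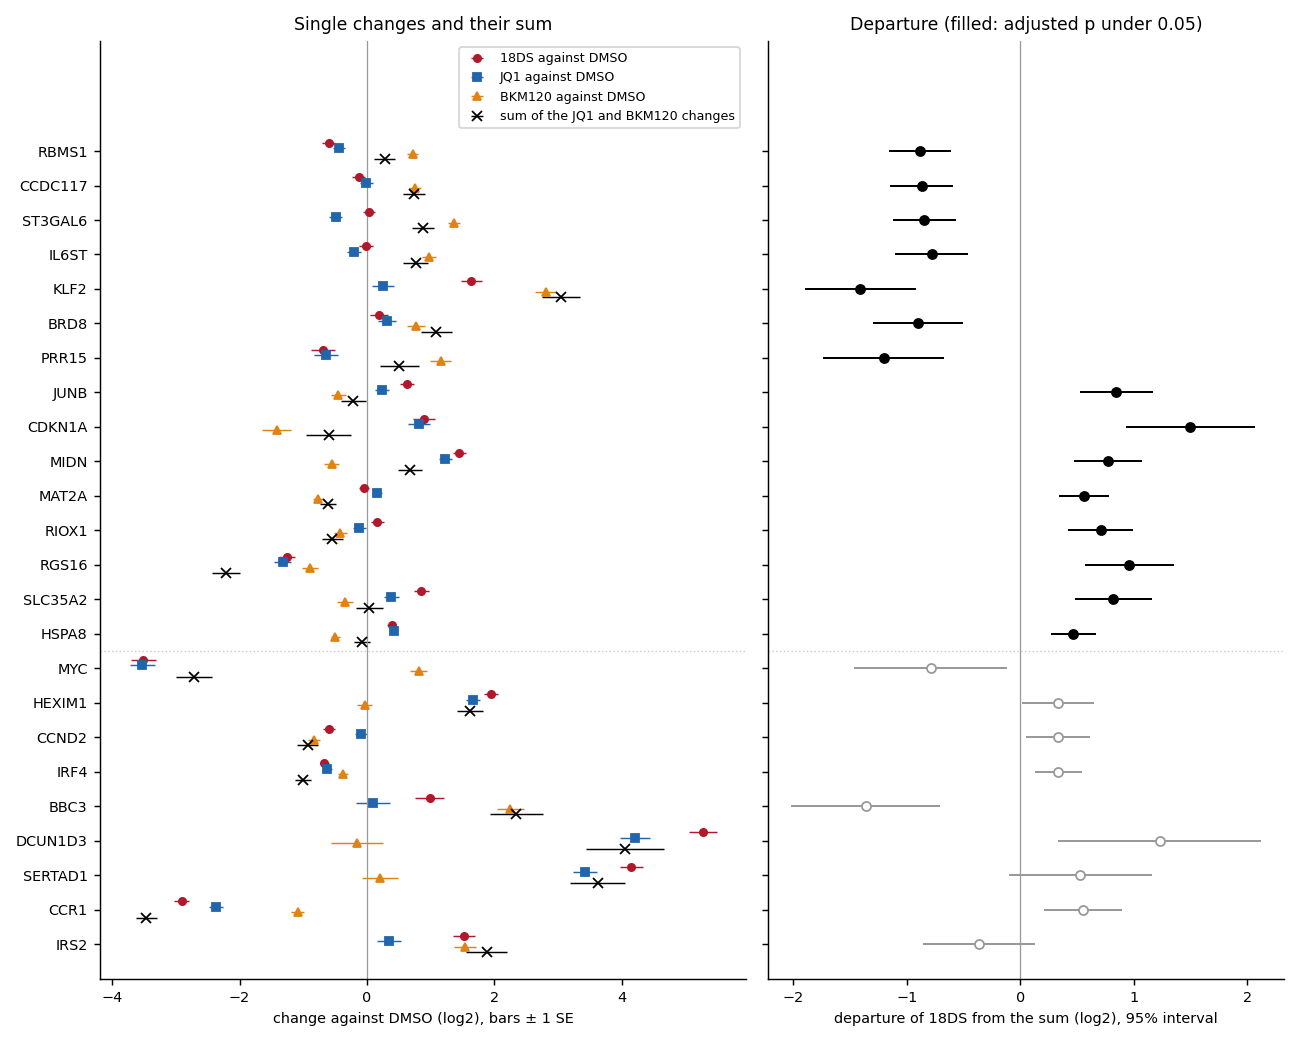
Left, log2 change against DMSO with 18DS, JQ1 and BKM120 and the added JQ1 and BKM120 changes (bars, 1 SE). Right, departure of 18DS from that sum with its 95% interval, filled where the adjusted p is under 0.05: the 15 genes above the dotted line have filled points, from −1.41 (KLF2) to 1.5 (CDKN1A), and the 9 below it, among them MYC, have open points.

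Genes just outside the threshold had departures of like size: HBP1 −1.02 ± 0.23 (adjusted p = 0.0545), TP53INP1 −1.11 ± 0.25 (0.0558), DNAJB1 0.56 ± 0.13 (0.0590) and CFLAR −0.65 ± 0.15 (0.0590). HBP1 is a transcriptional repressor, TP53INP1 a stress-induced protein of autophagy and cell death, DNAJB1 an HSP40 co-chaperone, and CFLAR an inhibitor of caspase-8. HBP1 had 12.3, 10.2 and 13.3 CPM with 18DS, 7.57, 9.82 and 8.03 with JQ1, 30.1, 28.5 and 28.2 with BKM120, and 9.72, 9.99 and 10.5 with DMSO. Only its BKM120 libraries stood clear of the rest. TP53INP1 had 16.5, 11.1 and 14.7 CPM with 18DS, 8.60, 6.37 and 6.09 with JQ1, 35.9, 42.1 and 39.5 with BKM120, and 10.3, 7.73 and 8.66 with DMSO. The 18DS libraries of TP53INP1 lay above the DMSO libraries and far below BKM120. Without 18DS replicate 2 the departures were −0.92 for HBP1 and −0.96 for TP53INP1, and DNAJB1 (0.57, adjusted p = 0.0269) and CFLAR (−0.70, adjusted p = 0.0236) passed the threshold. TP53INP1 also passed it without 18DS replicate 1 (adjusted p = 0.0254) or DMSO replicate 1 (0.0388), as DNAJB1 did without DMSO replicate 1 (0.0435).

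None of the leading genes of the single treatments passed the threshold in the departure apart from KLF2. MYC had 3.67, 2.46 and 1.42 CPM with 18DS, 2.24, 2.91 and 2.46 with JQ1, 56.5, 47.4 and 50.1 with BKM120, and 28.6, 32.2 and 27.2 with DMSO. MYC fell with 18DS (−3.51 ± 0.20) and JQ1 (−3.53 ± 0.20) and rose with BKM120 (0.81 ± 0.13), and the 18DS minus JQ1 difference was 0.02 ± 0.30. Its departure was −0.79 ± 0.33 (95% interval −1.46 to −0.12, adjusted p = 0.533), and −1.19, −0.76 and −0.50 without 18DS replicates 1, 2 and 3.

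Of the genes induced by JQ1, HEXIM1, an inhibitor of the elongation factor P-TEFb, averaged 122 ± 19.9 CPM with 18DS, 99.3 ± 11.2 with JQ1, 30.7 ± 0.258 with BKM120 and 31.4 ± 1.85 with DMSO (SD, n = 3 each), a departure of 0.33 ± 0.15 (adjusted p = 0.614), or 0.46 without 18DS replicate 2. DCUN1D3, which promotes cullin neddylation, had 80.2, 70.6 and 89.5 CPM with 18DS, 34.4, 41.3 and 39.2 with JQ1, 0.483, 2.07 and 3.06 with BKM120, and 1.62, 1.77 and 2.83 with DMSO. Its 18DS libraries were the highest of the 12. Because the BKM120 and DMSO counts were few, the departure of 1.23 ± 0.43 had an interval of 0.33 to 2.12 (adjusted p = 0.387). It was 1.32 without 18DS replicate 2 and 0.78 without BKM120 replicate 1. SERTAD1, a partner of cyclin D and CDK4, averaged 53.6 ± 3.43 CPM with 18DS, 32.2 ± 1.92 with JQ1, 3.51 ± 1.47 with BKM120 and 3.00 ± 0.900 with DMSO (SD, n = 3 each), a departure of 0.53 ± 0.31 (adjusted p = 0.739). That of SERTAD1 was 0.51 without 18DS replicate 2, 0.28 and 0.86 without BKM120 replicates 1 and 3, and 0.27 without DMSO replicate 2.

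Of the genes induced by BKM120, IRS2, an adaptor of insulin and IGF receptors, had 23.0, 23.4 and 27.0 CPM with 18DS, 9.46, 9.82 and 12.8 with JQ1, 25.1, 19.5 and 29.8 with BKM120, and 8.84, 9.82 and 6.83 with DMSO. The 18DS and BKM120 libraries overlapped, and its departure was −0.36 ± 0.24 (95% interval −0.85 to 0.13, adjusted p = 0.790). The IRS2 departure was −0.32 without 18DS replicate 2, −0.20 without BKM120 replicate 3, −0.23 without DMSO replicate 3 and −0.18 without JQ1 replicate 3. BBC3, the BH3-only protein PUMA, had 7.19, 6.14 and 8.84 CPM with 18DS, 3.78, 4.37 and 3.88 with JQ1, 17.7, 19.8 and 16 with BKM120, and 2.80, 4.19 and 4.33 with DMSO. The 18DS libraries of BBC3 lay between those of JQ1 and BKM120 without overlap, and its departure was −1.36 ± 0.32 (adjusted p = 0.0689), or −1.25 without 18DS replicate 2. PIK3IP1, an inhibitor of PI3-kinase, was at 0.316 to 0.702 CPM with 18DS, 0 to 0.344 with JQ1, 3.25 to 4.49 with BKM120 and 0 to 1.0 with DMSO, too few counts for a usable interval (−4.03 to 1.65). Its departure was −1.40 without 18DS replicate 2, and between −1.93 without DMSO replicate 3 and −0.28 without JQ1 replicate 1.

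Of genes lowered by the single compounds, CCR1, a chemokine receptor, averaged 12.1 ± 0.769 CPM with 18DS, 17.6 ± 1.38 with JQ1, 42.8 ± 3.80 with BKM120 and 91.2 ± 6.23 with DMSO (SD, n = 3 each). Its 18DS libraries were the lowest of the 12 yet lay above the expected 8.30 CPM, with a departure of 0.55 ± 0.17 (adjusted p = 0.272), or 0.59 without 18DS replicate 2. IRF4, the transcription factor on which myeloma cells depend, averaged 190 ± 4.47 CPM with 18DS, 196 ± 3.00 with JQ1, 234 ± 9.93 with BKM120 and 303 ± 12.6 with DMSO (SD, n = 3 each), and its departure was 0.33 ± 0.10 (adjusted p = 0.272), or 0.35 without 18DS replicate 2. CCND2, a D-type cyclin, averaged 193 ± 14.3 CPM with 18DS, 274 ± 10.2 with JQ1, 164 ± 22.2 with BKM120 and 293 ± 45.7 with DMSO (SD, n = 3 each), and its departure was 0.33 ± 0.14 (adjusted p = 0.540), or 0.39 without 18DS replicate 2 and 0.21 without DMSO replicate 1.

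Gene groups were described by how many tested members had an unadjusted departure p under 0.05, against 3.46% above and 4.24% below over all tested genes, and members beyond those already given were named after their values were seen. Among 43 tested FOXO-activated genes, 12 (27.9%) lay below the sum and 2 (4.65%) above it, with a median departure of −0.32. The median change of the list was 0.18 with 18DS, −0.11 with JQ1 and 0.41 with BKM120. Besides KLF2, BBC3, HBP1 and TP53INP1, the members below included BTG1, an antiproliferative factor (−0.46 ± 0.11), YPEL3 (−1.15 ± 0.29), MXI1, a MYC antagonist (−0.72 ± 0.18), the cyclin CCNG2 (−1.60 ± 0.56), the mTORC2 subunit RICTOR (−0.57 ± 0.19), the sestrin SESN1 (−0.53 ± 0.22) and the receptor IGF1R (−0.74 ± 0.30). Above the sum were CDKN1A and STAT3 (0.60 ± 0.21). Of the 14 in either direction, KLF2 and CDKN1A had an adjusted p under 0.05. Over the alternatives the list's median stayed between −0.40 and −0.29. BKM120 enters the departure with a minus sign, so the share below in a list that BKM120 raised is partly set by the contrast. The BKM120 change ran against the departure in 88.3% of the genes that BKM120 changed, and in 69.8% of all tested genes. The same limit holds for other lists that a single compound moved. Lists with a gene given with the comparison also count a member chosen with results of these data known.

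Among 38 tested PI3-kinase pathway and insulin receptor genes, 4 (10.5%) lay below and 2 (5.26%) above, with a median of −0.09. Below were PIK3CA, the catalytic subunit p110α (−1.12 ± 0.29), the adaptor GAB1 (−0.78 ± 0.27), RICTOR and IGF1R. Above were PDPK1 (0.37 ± 0.17) and GSK3A (0.60 ± 0.22), and the count above was 4 without BKM120 replicate 1 and 1 without BKM120 replicate 3 or DMSO replicate 2. No gene of this list had an adjusted p under 0.05.

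Among 30 tested immediate early genes, 9 (30%) lay above the sum and 2 (6.67%) below, with a median of 0.19. With MIDN and JUNB, those above were IER5 (0.55 ± 0.13), IER3 (1.14 ± 0.47), IER2 (0.27 ± 0.10), JUND (0.30 ± 0.13), DUSP2, a MAP kinase phosphatase (0.83 ± 0.26), ATF3 (0.96 ± 0.43) and CSRNP1 (0.81 ± 0.36). PPP1R15A, which directs dephosphorylation of eIF2α (−0.63 ± 0.19), and BTG2 (−0.33 ± 0.16) lay below, and leaving out 1 library gave 1 or 2 below. MIDN and JUNB had an adjusted p under 0.05. The median of the list ran from 0.09 without JQ1 replicate 2 to 0.27 without 18DS replicate 2.

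Among 29 tested heat shock chaperone genes, 6 (20.7%) lay above and 0 below, with a median of 0.15. These were HSPA8, DNAJB1, the inducible HSP70 gene HSPA1B (0.93 ± 0.34), DNAJA1 (0.40 ± 0.14), HSPA4 (0.37 ± 0.15) and CHORDC1 (0.43 ± 0.20). HSPA8 alone had an adjusted p under 0.05. DNAJB1 averaged 121 ± 2.06 CPM with 18DS, 139 ± 12.7 with JQ1, 43.5 ± 2.83 with BKM120 and 73.5 ± 4.92 with DMSO (SD, n = 3 each). The 18DS and JQ1 libraries lay above DMSO, and the BKM120 libraries below it.

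The list of RBMS and RNA decay factor genes had 9 of 30 tested members (30%) below the sum and 0 above, with a median of −0.13. Besides RBMS1 these were the exonuclease XRN1 (−0.77 ± 0.20), the decapping protein DCP1B (−1.41 ± 0.33), the deadenylase subunits CNOT6L (−0.47 ± 0.15) and PAN3 (−0.68 ± 0.27), the helicase DDX6 (−0.57 ± 0.26), TNRC6A (−0.42 ± 0.13), RC3H2 (−0.59 ± 0.19) and PUM2 (−0.29 ± 0.14). RBMS1 was the single member with an adjusted p under 0.05. As RBMS1 was given with the comparison, the share is partly set by that choice. Among 61 tested G2/M genes, 9 (14.8%) lay below and 0 above, with a median of −0.16, and none had an adjusted p under 0.05. CCNF (−0.42 ± 0.13) and CCNA2 (−0.32 ± 0.12), both cyclins, and the kinetochore genes CENPF (−0.27 ± 0.11) and NDC80 (−0.32 ± 0.15) were among them.

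Ribosome biogenesis factors had 10 of 113 tested members (8.85%) above and 1 (0.885%) below, with a median of 0.09, and none with an adjusted p under 0.05. IMP3 (0.43 ± 0.12) and UTP3 (0.34 ± 0.12) were among those above, and WDR74 (−0.33 ± 0.13) lay below. The count above was 6 without JQ1 replicate 1, with upper-quartile scaling or with DESeq2, and that below ran from 0 to 3 over the alternatives. Tubulin genes had 3 of 13 tested members above, namely TUBA4A (0.44 ± 0.10), TUBB4B (0.33 ± 0.11) and TUBB6 (0.27 ± 0.13), and 0 below, with a median of 0.31. Without BKM120 replicate 2 there were 6 above, and with no filter 7. Small nucleolar RNA host genes had 5 of 23 above and 0 below, with a median of 0.14, among them SNHG12 (0.39 ± 0.13). That count was 2 without 18DS replicate 3 and 3 without JQ1 replicate 2. Plasma cell and myeloma genes had 6 of 45 on each side, with a median of −0.01. Among them the plasma cell surface proteoglycan SDC1 (0.32 ± 0.11) lay above, and ST3GAL6, IL6ST and TNFRSF17, the surface antigen BCMA (−0.25 ± 0.10), lay below.

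Genes known to respond to BET inhibitors had 4 of 17 tested members above and 2 below, with a median of 0.11, and none with an adjusted p under 0.05. Below were MYC and KLHL9 (−0.83 ± 0.19). P-TEFb, 7SK and BET genes had 2 of 28 above and 3 below, with a median of −0.08, among them MEPCE, the 7SK capping enzyme (0.56 ± 0.16), and CCNT2 (−0.63 ± 0.24). Of 61 MYC-activated genes 2 (3.28%) lay on each side. No mitochondrially encoded gene of 15 lay on either side, and 3 lay below without 18DS replicate 2. Cytosolic ribosomal protein genes had 2 of 80 (2.5%) above and 0 below. The count above was 8 without 18DS replicate 1, BKM120 replicate 2 or DMSO replicate 1, 7 with no filter, and 0 without 18DS replicate 3. The other counts in this group of lists also moved with 1 library: over the alternatives those above ran from 2 to 6 for BET inhibitor response genes, 1 to 3 for P-TEFb, 7SK and BET genes and 0 to 4 for MYC-activated genes, and those below from 1 to 2, 0 to 3 and 1 to 4, in the same order.

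**Figure D4:**
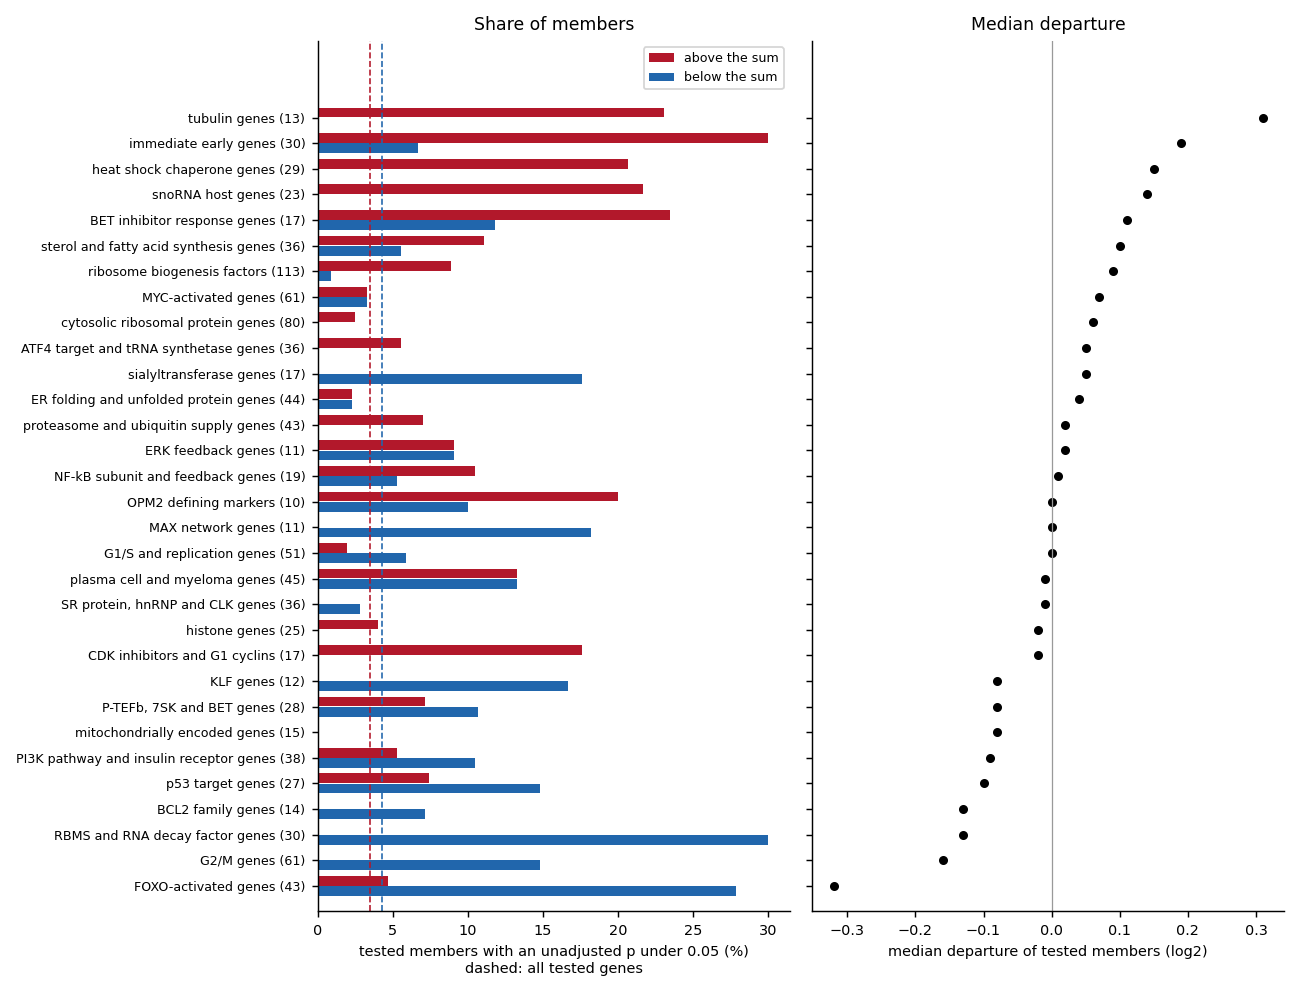
Left, share of tested members (%) of each gene list with an unadjusted departure p under 0.05, above (red) or below (blue) the sum, for lists with 10 or more tested members (number in parentheses), with the shares over all tested genes dashed at 3.46% and 4.24%. Right, the median departure of the list (log2), from −0.32 for FOXO-activated genes to 0.31 for tubulin genes.

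The promoters of the genes with an adjusted p under 0.05 were looked up in RefSeq (GRCh38.p14; the deposited counts were made on hg19), as 300 bases from 250 before to 50 after each listed start. Of the 16 identifiers 14 matched, with 21 starts. On both strands 4 motifs were searched: the forkhead core GTAAACA, the E-box CACGTG, the heat shock element pair GAANNTTC and the TATA box TATAAA. The forkhead core was in the promoters of ST3GAL6 and JUNB, the E-box in that of MIDN, the heat shock pair in those of ST3GAL6 and HSPA8, and the TATA box in those of JUNB and MAT2A. Counted by start, 2, 1, 2 and 2 of the 21 held each motif, in the same order. Over all 35116 listed promoters the shares with each motif were 3.42%, 7.26%, 6.77% and 11.5%. Over the 12827 of tested genes they were 2.62%, 9.64%, 4.7% and 5.96%. The matches did not overlap one another. The promoters of RBMS1, CDKN1A and KLF2 held none of these letters in the window. The promoters below are shown because they hold a match beside a named departure, with each match in capitals: the forkhead core on the minus strand (printed TGTTTAC) at base 29 after the start in the first of 4 listed starts of ST3GAL6 and at base -166 in JUNB, the TATA box of JUNB at base -31, heat shock pairs at bases -230 and -50 in HSPA8, and an E-box at base -181 in the second start of MIDN.
ST3GAL6 (chr3:98732012-98732311, plus strand): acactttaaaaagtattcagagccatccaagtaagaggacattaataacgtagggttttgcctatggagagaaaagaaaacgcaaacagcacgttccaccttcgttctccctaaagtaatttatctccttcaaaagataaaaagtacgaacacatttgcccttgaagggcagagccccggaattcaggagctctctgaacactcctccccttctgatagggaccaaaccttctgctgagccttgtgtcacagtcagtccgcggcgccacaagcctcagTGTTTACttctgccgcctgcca
JUNB (chr19:12791236-12791535, plus strand): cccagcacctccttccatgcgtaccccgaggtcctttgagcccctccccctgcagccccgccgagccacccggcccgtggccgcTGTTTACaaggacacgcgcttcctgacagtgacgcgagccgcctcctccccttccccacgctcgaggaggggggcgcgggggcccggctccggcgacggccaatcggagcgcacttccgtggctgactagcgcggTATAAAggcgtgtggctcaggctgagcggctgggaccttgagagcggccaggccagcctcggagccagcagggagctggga
HSPA8 (chr11:123062087-123062386, minus strand): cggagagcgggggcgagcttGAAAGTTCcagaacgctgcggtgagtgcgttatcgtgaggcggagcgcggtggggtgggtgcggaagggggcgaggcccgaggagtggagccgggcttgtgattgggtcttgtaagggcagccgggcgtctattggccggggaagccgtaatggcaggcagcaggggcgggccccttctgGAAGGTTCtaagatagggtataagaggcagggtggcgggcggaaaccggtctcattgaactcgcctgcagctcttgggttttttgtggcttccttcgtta
MIDN (chr19:1249638-1249937, plus strand): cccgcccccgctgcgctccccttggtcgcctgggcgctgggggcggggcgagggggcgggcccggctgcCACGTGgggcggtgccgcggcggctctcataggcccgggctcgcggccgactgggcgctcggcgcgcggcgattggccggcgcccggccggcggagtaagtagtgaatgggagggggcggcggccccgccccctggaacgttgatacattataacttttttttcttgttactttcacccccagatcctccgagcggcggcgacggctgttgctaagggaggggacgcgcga
ST3GAL6 departed below the sum and JUNB above it. The forkhead core was in 2 of the 21 starts, and a link with the direction of departure was not tested.

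The departure is defined on the log2 scale, and with the sum taken in CPM instead, 33 genes passed the threshold (11 above, 22 below), of which 6 were among the 16: RBMS1, CCDC117, ST3GAL6, IL6ST, KLF2 and PRR15. On that scale the value is the difference in CPM divided by the gene's mean CPM, and CDKN1A (0.57), MIDN (0.42), JUNB (0.58) and HSPA8 (0.24) kept their direction and missed the threshold. MYC (−1.03), BBC3 (−1.29), TP53INP1 (−1.34), HBP1 (−1.04), DCUN1D3 (1.37), SERTAD1 (0.90) and CCR1 (1.05) passed it there. So did PIK3IP1 (−2.32), despite its few counts, and the list members CCNG2 (−1.77) and DCP1B (−0.83). The count of departures on the log2 scale was 26 without 18DS replicate 1, 8 without 18DS replicate 3, 8, 6 and 10 without JQ1 replicates 1, 2 and 3, 5, 24 and 6 without BKM120 replicates 1, 2 and 3, and 24, 7 and 3 without DMSO replicates 1, 2 and 3. The 3 that passed in every one of these fits were RBMS1, CCDC117 and ST3GAL6.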

How the data were processed

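RNA of OPM2 cells was profiled from its 3′ ends in 12 libraries, 3 for each of 18DS, JQ1, BKM120 and DMSO. The authors deposited raw counts per Ensembl gene, 1 column per library with nothing pooled. Per the submitters' processing notes the genome build was hg19 and the tools included HISAT2 2.1.0 and featureCounts, with cutadapt 1.7 and limma also listed. Whether counting used strand or multi-mapping reads, and on which annotation, is not given in the sources used here, so reads of overlapping and antisense genes cannot be told apart.

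From the counts, genes were kept with edgeR 4.0.16 filterByExpr (minimum count 10), scaled with TMM, and fitted with the robust quasi-likelihood model over all 12 libraries with 1 mean per group (R 4.3.3). The departure is the contrast of 18DS minus JQ1 minus BKM120 plus DMSO, and p-values are two-sided and Benjamini-Hochberg adjusted over all 13180 tested genes, with 0.05 as threshold. Of the 63152 identifiers, 51662 had a symbol. CPM uses TMM-scaled library sizes, except for the cell type marker levels, which use plain library totals. An expected level adds mean log2 CPM of JQ1 and BKM120 and subtracts that of DMSO. Standard errors derive from the fitted test, and SDs are over 3 libraries.

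Genes named are the 4 given with the comparison (CDKN1A, ST3GAL6, RBMS1 and MIDN), 11 leading genes of the single treatments, and up to 12 of the largest called departures in each direction among genes with a symbol, a mean of at least 5 CPM and all 3 18DS libraries on the same side of the expected level. A part of the rule on lists with at least 3 called members named none, since no list had them. Other genes named were chosen after their values were seen, and some list members are not reported here. The genes, the 35 gene lists (1224 entries, 46 not matched) and the tests were chosen with earlier results of these data known. Alternatives were other scalings (library totals, upper quartile, DESeq2 size factors), DESeq2 1.42.0, limma-voom 3.58.1, no robust option, other count filters, a replicate block, the sum taken in CPM, and each library left out. On simulated counts for the departure, 200 of 13180 genes were changed, drawn only from genes above a minimum mean count. The model recovered 97% of the 4-fold changes, 67.2% of the 2-fold ones and 31.3% at 1.5-fold, and 7.14% of its calls were false. It made 140 calls there, against 16 in the data, and more calls make the adjusted threshold easier to pass. Recovery in the data, and among genes of low level, can therefore be lower. Figures were drawn with matplotlib 3.10.9.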

Additional observations from a re-analysis of the deposited data

How the results depend on the processing

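The count of 16 departures was 16 with library totals, 14 with DESeq2 size factors, 14 with a filter of 1 CPM in 3 libraries, 18 among genes whose mean reached 5 CPM, and 21 with DESeq2, all 16 being among those 21. Upper-quartile scaling gave 23 (9 above and 14 below, against 9 and 7), with a median departure of −0.0263 over all genes. The count was 10 without the robust option, 45 with no filter, 8 with limma-voom and 33 (11 above and 22 below) with the sum taken in CPM, and the causes were not tested. RIOX1 with the identifier of the same counts, SLC35A2, HSPA8, BRD8 and PRR15 lost their call without the robust option. With limma-voom MIDN, RIOX1 with that identifier, RGS16, IL6ST, SLC35A2, BRD8 and PRR15 lost theirs. BRD8 and PRR15 also lost theirs with DESeq2 size factors and with the filter of 1 CPM in 3 libraries. Leaving out 1 library gave 3 (without DMSO replicate 3) to 31 (without 18DS replicate 2) departures. Leaving out any library other than BKM120 replicate 2 or DMSO replicate 1 moved the count over 1.5 times. The range was 504 to 1021 genes for JQ1 against DMSO (529 without DMSO replicate 3, 504 and 507 without JQ1 replicates 2 and 3), 482 to 1564 for BKM120 against DMSO (552 and 482 without BKM120 replicates 1 and 3, 532 without DMSO replicate 1) and 1909 to 3026 for 18DS against DMSO. Each fit leaves 1 group with 2 libraries, whose spread is taken from all groups. Library totals put 898 of 2919 changes with 18DS and 439 of 1248 with BKM120 higher, and upper-quartile scaling 1675 of 2888 and 734 of 1165, against 1313 of 2769 and 536 of 1082. Over the alternatives run, no called gene, leading gene of the single treatments or gene just outside the threshold reversed the direction of its departure. Other genes named were not followed in this way. Medians of lists near 0 did change sign: that of sialyltransferase genes was −0.08 with no filter, −0.04 without 18DS replicate 2 and −0.01 without DMSO replicate 1, and that of plasma cell and myeloma genes 0.02 without 18DS replicate 2 or JQ1 replicate 3. With the replicate number as a block the count was 16, of which 15 were shared, and BRD8 was lost (adjusted p = 0.0625). For the single comparisons the replicate block gave 2667 genes with 18DS, 743 with JQ1 and 1042 with BKM120. Libraries of the same number had correlated deviations from their group means in 4 of 18 pairs over 0.1 (range −0.40 to 0.31), and 3 of 12 libraries correlated best with their own number. The numbers were therefore not taken as pairing the libraries. Libraries of 1 group differed by more than sampling noise in every pair (chi-square per degree of freedom 1.92 to 8.83). With 5501895 to 7692013 counts per library, 8.01% of genes under a mean of 5 CPM had an interval within 1 log2 unit of 0.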

Other observations

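Some large fitted departures belonged to genes with few counts, and 3 of these that edgeR's quasi-likelihood test did not call over all 12 libraries are given here. CITED4, a transcriptional co-activator, had 18, 1 and 6 counts with 18DS, 1, 2 and 0 with JQ1, 3, 0 and 3 with BKM120, and 2, 15 and 11 with DMSO. Its departure was 5.0 ± 1.40 (log2, SE; adjusted p = 0.234). LAPTM5, a lysosomal membrane protein of blood cells, had 20, 7 and 7 counts with 18DS, 1, 2 and 1 with JQ1, 0, 15 and 4 with BKM120, and 7, 10 and 23 with DMSO, and departed by 4.0 ± 1.16 (adjusted p = 0.272). FSCN1, which bundles actin filaments, had 16, 10 and 8 counts with 18DS, 1 in each JQ1 library, 9, 3 and 3 with BKM120, and 1, 13 and 7 with DMSO, and departed by 3.78 ± 1.05 (adjusted p = 0.184). Some alternatives did call them: CITED4 with no filter (adjusted p = 0.00939), without 18DS replicate 2 (0.0309) and without DMSO replicate 1 (0.0485), LAPTM5 with no filter (0.00836) and without BKM120 replicate 2 (0.0369), and FSCN1 without DMSO replicate 1 (0.0492). In these 3 genes the 18DS and DMSO libraries overlapped, and 18DS replicate 1 held the highest count of its group. These 3 were chosen after their values were seen, from 5 uncalled genes with a symbol, a departure over 2.5 log2 units and an unadjusted p under 0.01. The others of the 5 were CEBPA (2.94 ± 0.72, adjusted p = 0.11) and MFSD2A (2.54 ± 0.73, adjusted p = 0.215). CEBPA passed the threshold with no filter and without 18DS replicate 2 or DMSO replicate 1.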
